A study of Mus musculus with 4 samples.

Results

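The 10 genes described here encode the subunits of the hypoxia-inducible factors (HIFs) and the regulators through which cells sense oxygen. They were taken by name alone, as *Hif1a*, *Epas1*, *Hif3a*, *Arnt*, *Arnt2*, *Egln1*, *Egln2*, *Egln3*, *Vhl* and *Hif1an*, and every probe with one of these names was kept whatever its value. They had 19 of the 39323 non-control probes with a value on every array, and made up 10 of 29614 gene names.

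The study examined astrocyte-enriched cultures (AECs), made from cortices of newborn ICR mice that were stripped of meninges, with the cells of several pups pooled. All cultures, controls included, had received PLX3397, which blocks the receptor CSF1R and so depletes microglia. One group was left untreated (n = 2), and the other was kept without glucose under hypoxia for 15 h (oxygen–glucose deprivation, OGD, n = 2). According to the methods, wells came from independent cultures of different pups, and each RNA sample was read on its own array in a single color (Cy3). Oxygen and glucose were withdrawn together, so their effects cannot be told apart here.

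A HIF is a pair of one α and one β subunit. The α subunits are made continuously, and with oxygen present the prolyl hydroxylases (PHDs, encoded by the *Egln* genes) mark them for the VHL ubiquitin ligase and degradation, while the asparaginyl hydroxylase FIH (encoded by *Hif1an*) blocks their binding of coactivators. Without oxygen both reactions stop, the α subunit joins its β partner ARNT in the nucleus, and genes with a hypoxia response element are switched on. Since this control acts on protein, the mRNA levels measured here are not a measure of HIF activity.

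Values below are the processed signal, an intensity already corrected for background on each array, and the normalized signal, which is its log2 minus the log2 of the array's 75th percentile. That percentile was 2135 and 2164 for untreated AECs but 887 and 776 for AECs under OGD (log2 difference −1.37), so a gene whose processed signal was the same in both groups has a positive log2 fold change. Using the mean of 9 spiked-in control probes as the scale instead lowers every log2 fold change by 1.29 (shift −1.29), and with it the median over all probes tested goes from 0.18 to −1.11. The spiked-in probes themselves differed between groups by −0.75 to 0.28 on the log2 scale. Where a direction is given below for a named gene or for a list, its value or count on the spike-in scale is given too if it turned. Per the labels the same mass of total RNA was labeled for each sample, so the signals do not measure RNA per culture. In such bulk RNA, fewer cells of a type and less RNA per cell of that type cannot be told apart.

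All 15 astrocyte markers examined were well above background on all arrays, with 8 higher and 2 lower after OGD, and *Gfap*, the intermediate filament of astrocytes, had processed signals of 47436 and 46408 untreated and 31713 and 28266 after OGD (log2 fold change 0.72, which turned to −0.56 on the spike-in scale and −0.03 after quantile normalization). Markers of other cells were present too. The summed normalized signal of the microglia markers (signal over the 75th percentile) was 5.40 and 5.01 untreated and 11.8 and 11.6 after OGD, with 5 of 11 tested markers higher and 2 lower. That of the oligodendrocyte lineage markers was 29.4 and 29.6 untreated and 26.6 and 25.7 after OGD, with 4 of 10 higher and 4 lower, and *Olig2*, a transcription factor of that lineage, fell by 2.50 on the log2 scale. Of the neuron markers 5 of 9 tested were higher and 2 lower, and their sum was 29.5 to 31.5 untreated and 32.2 to 35.3 after OGD. Of 10 endothelial and mural markers 4, *Cldn5*, *Tek*, *Kcnj8* and *Abcc9*, were not well above background on any array. The sum of all 10 was 2.97 to 3.17 untreated and 1.87 to 2.11 after OGD, with 1 of 6 tested higher and 2 lower. The meningeal fibroblast markers summed to 11.1 to 13.1 untreated and 8.47 to 11.0 after OGD, with 1 of 6 tested higher and 2 lower. On the spike-in scale 0 astrocyte markers were higher and 11 lower, 1 microglia marker was higher and 8 lower, and 0 oligodendrocyte lineage markers were higher and 9 lower. Of the neuron markers 1 was then higher and 6 lower, of the endothelial and mural markers 0 and 6, and of the fibroblast markers 0 and 5, beside 3.85% of all genes higher and 83.4% lower on that scale. On the percentile scale the share of all genes was 37.1% higher and 27.9% lower, so several of these counts lay near the background. With the methods' t-test there were 7 higher and 1 lower astrocyte markers, 5 and 0 microglia and 4 and 3 oligodendrocyte lineage markers. The neuron markers were then 5 and 0, the endothelial and mural markers 0 and 1 and the fibroblast markers 0 and 1 (all genes 25.8% and 19.8%). The part of these cells in the changes of the HIF genes was not tested.

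Of the 10 genes, each read at its brightest probe, *Hif1a*, *Epas1*, *Egln1* and *Egln3* were higher after OGD and *Arnt*, *Egln2* and *Hif1an* were lower, with *Hif3a*, *Arnt2* and *Vhl* past no limit (limma, Benjamini–Hochberg adjusted p limit of 0.05 over 28163 probes). These 4 higher and 3 lower genes stand beside a background of 37.1% of 20997 genes higher and 27.9% lower (65.0% in either direction). With the spiked-in probes as scale, 2 genes were higher (*Egln1* and *Egln3*) and 7 lower, against 3.85% and 83.4% of all genes, and after quantile normalization 3 were higher and 4 lower, against 28.3% and 31.2%. The arrays of the groups did not overlap for 8 genes, with the OGD arrays above for 4 and below for 4, where 48.6% and 36.2% of all genes did so. Past a 2-fold limit as well there were 3 higher and 2 lower genes (background 12.7% and 15.0%), and past the study's 10-fold limit limma called 0 (background 1.27%). With 2 arrays in each group an exact two-sided permutation test cannot go below p = 0.333. The limma p-values therefore rest on a model that joins each probe's own spread with that pooled across probes.

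**Figure D1:**
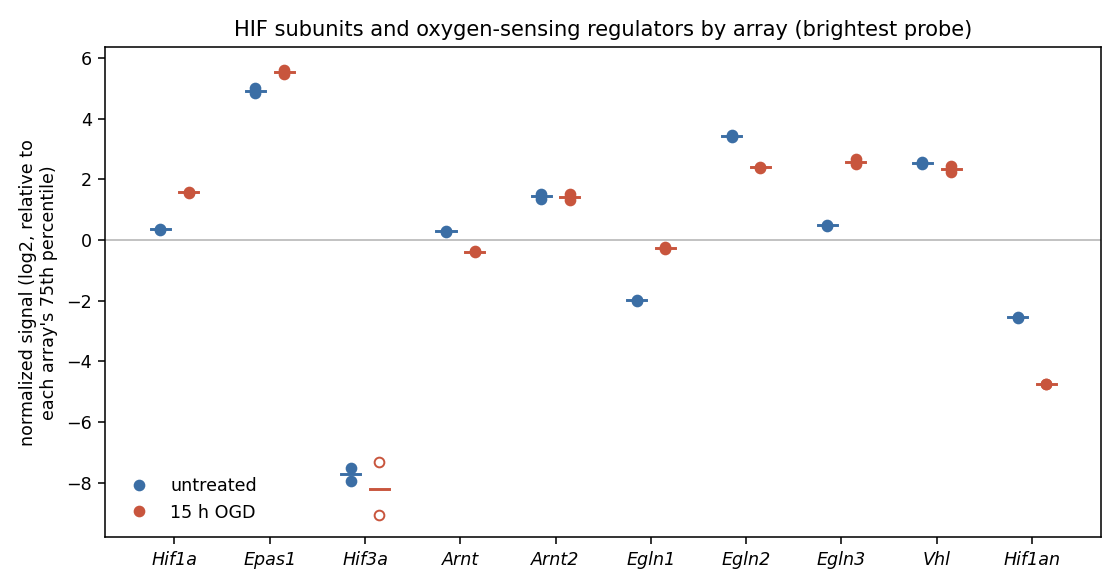
Normalized signal (log2, relative to each array's 75th percentile) of the brightest probe of each gene. Points are single arrays (n = 2 per group), short lines are group means, and open points mark a group whose arrays were not well above background. Untreated and OGD points lie apart for all genes but *Hif3a* and *Arnt2*. Heights can be compared within a gene but not between genes, which have different probes.

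By probe, 13 of the 17 tested were past the limit, 9 higher and 4 lower (background 65.1% of 28163 probes in either direction, 38.0% higher and 27.1% lower), and the 9 include the dim *Hif1a* probe, from which no fold is read below. On the spike-in scale 4 probes were higher and 11 lower, beside 4.48% and 82.0% of all probes, and 2 probes were not well above background on any array. Since the results of *Arnt* turn on which probe is read, the last 30 bases of its 2 tested probes are printed first, followed by those of *Egln2*, *Egln3* and *Vhl* that hold a hexamer known from polyadenylation signals (AATAAA or ATTAAA, in capitals, sought on the printed strand only). The sequences are those of the array design, 5′ to 3′, from probes of 60 bases.
Arnt A_55_P2100899: tatagaagaaATTAAAtgaatttcccaggc
Arnt A_55_P2100895: aataatgacatgtagcaaagattttaaaac
Egln2 A_55_P1960924: ccaagaAATAAAagtttacctcagagctgc
Egln3 A_55_P1960916: tcgcaaagaAATAAAgttggtgacagatgc
Vhl A_66_P106593: tttagtacAATAAAcggtgctaattgaagg
Such a hexamer was found in the last 30 bases of 4 of the 19 probes of these genes, and of 13.7% of all 39429 non-control probes. A match is only a run of letters, and whether polyadenylation occurs there was not tested.

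Among the α subunits, *Hif1a*, which encodes the broadly expressed HIF-1α, was read by a probe in the 3′ portion of its transcript (A_51_P387608, from base 3512). It gave processed signals of 2752 and 2740 untreated and 2622 and 2299 after OGD. The processed signals were thus slightly lower after OGD, and they fell less than the array's 75th percentile. On the normalized scale the log2 fold change was 1.21 (SE 0.07, limma adjusted p = 0.00123), or 2.32-fold higher with no overlap between groups, but under the spike-in scaling it was −0.08 (adjusted p = 0.511). The other *Hif1a* probe (A_55_P2149011) was dim, at 12.6 and 11.5 untreated and 7.04 and 5.77 after OGD, where it was not well above background, and no fold is read from it.

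*Epas1* encodes HIF-2α, the α subunit known for its role in endothelium and in the regulation of *Epo*. Its brightest probe (A_51_P250058) had processed signals of 68248 and 62012 untreated and 43409 and 34272 after OGD, the lower values again after OGD. The normalized log2 fold change was 0.62 (SE 0.11, limma adjusted p = 0.0110), and it turned to −0.20 after quantile normalization (adjusted p = 0.116) and to −0.67 under the spike-in scaling (adjusted p = 0.00449). This call also rested on both untreated arrays, since the adjusted p was 0.0504 without untreated replicate 1 and 0.0806 without untreated replicate 2.

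A second *Epas1* probe (A_55_P2053988), 2028 bases upstream on the same transcript, had processed signals of 2054 and 1950 untreated and 2478 and 1863 after OGD, so the groups overlapped before scaling. Its log2 fold change was 1.48 (SE 0.11, limma adjusted p = 0.00173), and 0.19 under the spike-in scaling (adjusted p = 0.232). The remaining probe (A_55_P2077448) lay close to the second, 1937 bases upstream of the brightest, yet had a log2 fold change of 0.65 (SE 0.17, adjusted p = 0.0332), which turned to −0.64 under the spike-in scaling. Its call rested on both untreated arrays, and it was lost with the methods' t-test (adjusted p = 0.138). For this gene the size of the change therefore depended on the probe.

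*Hif3a*, whose products include short forms that oppose the other α subunits, was near the background. Its brightest probe (A_55_P2161423) gave 11.8 and 8.76 untreated and 1.66 and 4.82 after OGD, and A_55_P2015541 gave 13.1 and 8.60 untreated and 1.33 and 3.52 after OGD. Both were well above background on both untreated arrays and on neither array after OGD, and the remaining probe on no array. On the normalized scale the groups overlapped, and the log2 fold changes of −0.47 (SE 0.65, adjusted p = 0.555) and −0.93 (SE 0.62, adjusted p = 0.257) missed the limit. With the spike-in scaling both were past the limit as lower, at −1.76 (adjusted p = 0.0327) and −2.21 (adjusted p = 0.0129), so *Hif3a* is 1 of the 7 lower genes there. With the normexp background correction both were past it as higher, at 1.12 (adjusted p = 6.26e-05) and 1.01 (adjusted p = 0.000131), so no direction is given. Without OGD replicate 2 they were −1.34 (adjusted p = 0.0215) and −1.73 (adjusted p = 0.0243), and without OGD replicate 1 the first was 0.39.

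Set against each other within each array, where a scale common to all probes cancels, the log2 fold change of *Epas1* minus that of *Hif1a* was −0.59 (95% CI −0.89 to −0.30, limma adjusted p = 0.00759), each at its brightest probe. Quantile normalization, which is not such a scale, gave −0.20 for *Epas1* and 1.12 for *Hif1a*, further apart. At its probe A_55_P2053988, *Epas1* (1.48) lay above *Hif1a* (1.21), a difference that was not tested. Against the *Hif1a* probe 83.5% of all probes differed past the same limit. No such difference is read for *Hif3a*, since it was not well above background after OGD.

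**Figure D2:**
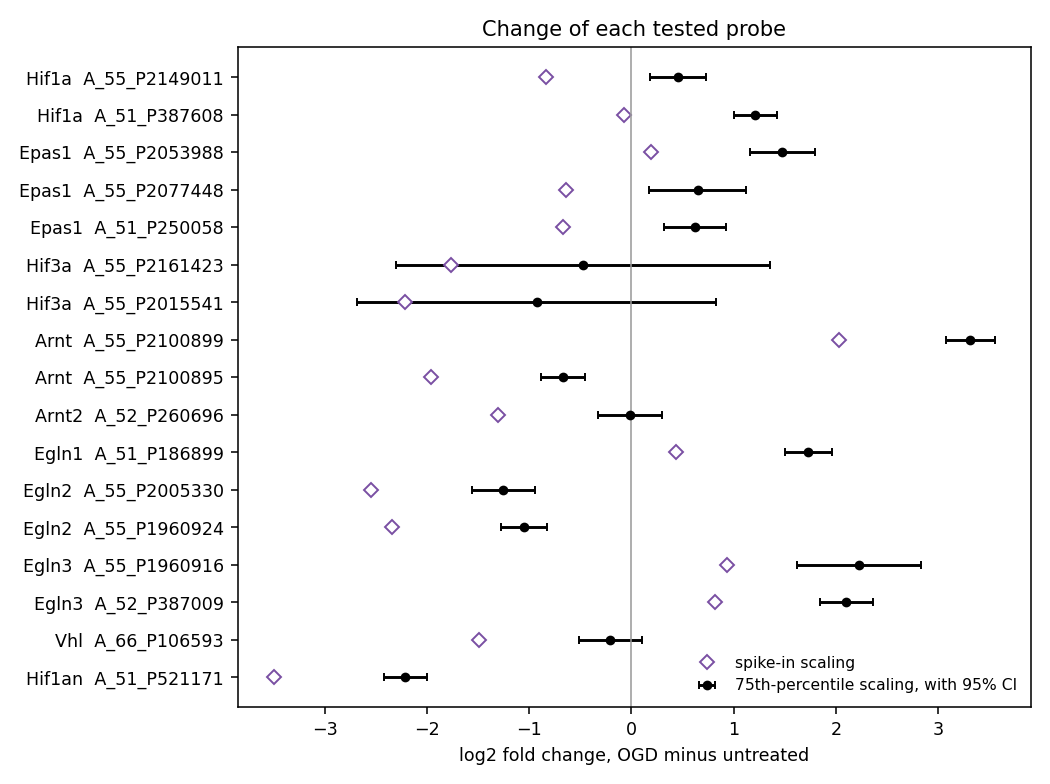
Log2 fold change (OGD minus untreated, n = 2 per group) of each of the 17 tested probes. Filled points with bars are the 75th-percentile scaling with its 95% confidence interval, and open diamonds are the spike-in scaling, lower by 1.29 for each probe. Both *Egln3* probes, *Egln1*, *Arnt* A_55_P2100899 and *Epas1* A_55_P2053988 lie above 0 on both scales.

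The β subunit gene *Arnt* gave opposite results at its 2 tested probes. ARNT, also called HIF-1β, is the partner with which the α subunits bind DNA. Both probes are on the same transcript and strand, A_55_P2100899 from base 2641 (mm9, chr3:95299434-95299493) and A_55_P2100895 from base 4288 (mm9, chr3:95301081-95301140). They lie 1647 bases apart on the transcript and on the genome alike, and which annotated exon or UTR they fall in was not analysed here.

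The upstream probe, whose end holds ATTAAA, had processed signals of 219 and 222 untreated and 945 and 761 after OGD. The downstream probe, which is the brighter, had 2633 and 2595 untreated and 683 and 587 after OGD. The groups were thus apart at both probes, upward at the first and downward at the second, before any scaling. The log2 fold change was 3.31 (SE 0.09, limma adjusted p = 0.000719), 9.95-fold higher, at the upstream probe, and −0.67 (SE 0.08, adjusted p = 0.00372), 1.59-fold lower, at the downstream probe. Under the spike-in scaling they were 2.03 and −1.96, so each kept its direction. Another *Arnt* probe (A_55_P2120812), further upstream and designed on another transcript, was not well above background on any array.

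The difference between the 2 changes, which no scaling constant can alter, was 3.99 (SE 0.11, limma adjusted p = 0.000516) and larger in size than that of 99.2% of 6129 probe pairs of one gene in which each probe passed the background test on every array. The log2 difference of the upstream from the downstream probe within an array was −3.59 and −3.54 untreated, and 0.47 and 0.37 after OGD. Since *Arnt* is called by its brightest probe, averaging its tested probes turns its log2 fold change to 1.32 (adjusted p = 0.00125). Of 5578 genes with a tested probe pair, 12.3% had probes past the limit in opposite directions. Of the 6 genes described here with more than 1 tested probe, *Arnt* was the 1 that did.

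Of the 7 tested probe pairs in the 10 genes, each set against the brightest probe, 2 (of *Hif1a* and *Hif3a*) had a probe that was not well above background after OGD, and no difference is read from them. In the other 5 each probe passed the background test on every array, and 2 of these differed past the limit, as did 44.9% of 6129 such pairs of all genes. Besides *Arnt* this was *Epas1* A_55_P2053988 (0.86, SE 0.11, limma adjusted p = 0.00509), which missed the limit without untreated replicate 1 (adjusted p = 0.0668) or 2 (adjusted p = 0.0569). All 5 pairs lay on one transcript, and in both that differed the upstream probe changed more upward. The same order was found in 36.7% of all 3815 such pairs and the opposite order in 3.88%. The median difference over all these pairs was 0.28, so a more upward change at the upstream probe was common on these arrays. The 2 probes of *Egln2* and of *Egln3*, 342 and 299 bases apart, differed by −0.21 (adjusted p = 0.273) and 0.12 (adjusted p = 0.612).

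**Figure D3:**
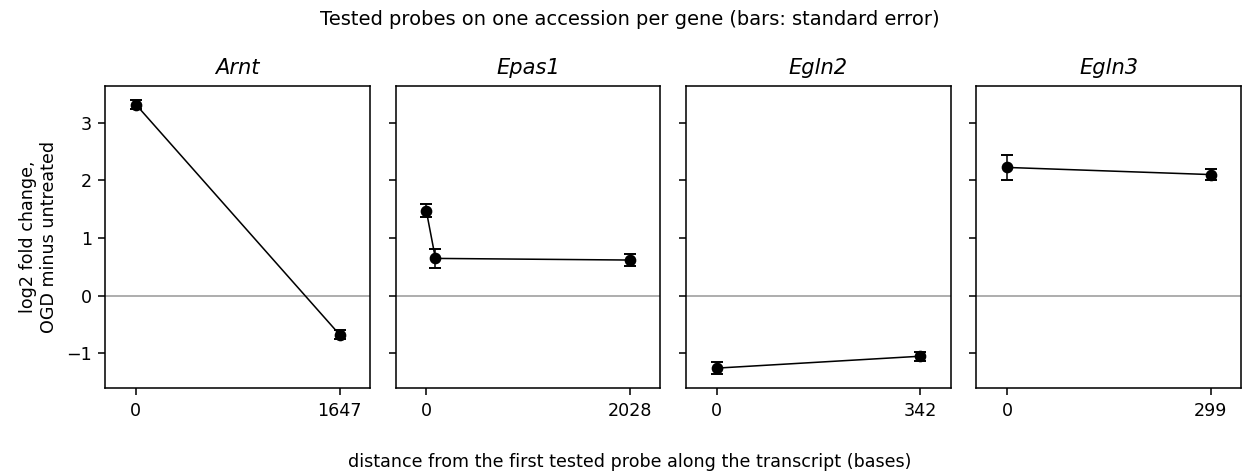
Log2 fold change (OGD minus untreated, 75th-percentile scaling) of the tested probes that lie on one transcript, against the distance in bases from the first of them. Bars are standard errors of the fit. The line of *Arnt* goes from 3.31 to −0.67 over 1647 bases, while the probes of *Egln2* and *Egln3* lie at similar heights.

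*Arnt2*, the β subunit known from neurons, had processed signals of 5487 and 6155 untreated and 2227 and 2212 after OGD. It kept pace with the 75th percentile, with a log2 fold change of −0.02 (95% CI −0.33 to 0.30, limma adjusted p = 0.911) and overlapping groups, and under the spike-in scaling it was at −1.30 (adjusted p = 0.000552). Within arrays, the upstream *Arnt* probe changed by 3.33 more than *Arnt2* (95% CI 2.89 to 3.77, adjusted p = 2.97e-05) and the downstream probe by −0.66 (95% CI −1.08 to −0.23, adjusted p = 0.0177). Against the *Arnt2* probe 57.0% of all probes differed past the limit.

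The 3 prolyl hydroxylase genes split. *Egln1* (PHD2, the main oxygen sensor of most cells) and *Egln3* (PHD3), both known as HIF target genes themselves, were higher, and *Egln2* (PHD1) was lower, on the percentile and on the spike-in scale. The stretches of 250 bases before their transcription starts are shown to set this split beside the core of the hypoxia response element. They are RefSeq sequences on GRCm38.p6, read on the gene's strand, with ACGTG and GCGTG, sought on both strands, in capitals.
Egln1, chr8:124949255-124949504, minus strand: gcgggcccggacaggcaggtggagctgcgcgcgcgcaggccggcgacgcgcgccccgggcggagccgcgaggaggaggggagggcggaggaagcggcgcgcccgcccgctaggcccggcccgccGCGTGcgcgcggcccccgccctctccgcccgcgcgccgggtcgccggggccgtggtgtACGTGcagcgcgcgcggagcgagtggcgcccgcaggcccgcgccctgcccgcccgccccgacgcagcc
Egln3, chr12:54203875-54204124, minus strand: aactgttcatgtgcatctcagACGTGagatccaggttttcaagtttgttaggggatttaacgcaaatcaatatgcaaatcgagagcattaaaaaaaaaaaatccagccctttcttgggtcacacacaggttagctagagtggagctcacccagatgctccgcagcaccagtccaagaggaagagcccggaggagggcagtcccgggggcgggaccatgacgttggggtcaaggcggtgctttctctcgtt
Egln2, chr7:27166803-27167052, minus strand: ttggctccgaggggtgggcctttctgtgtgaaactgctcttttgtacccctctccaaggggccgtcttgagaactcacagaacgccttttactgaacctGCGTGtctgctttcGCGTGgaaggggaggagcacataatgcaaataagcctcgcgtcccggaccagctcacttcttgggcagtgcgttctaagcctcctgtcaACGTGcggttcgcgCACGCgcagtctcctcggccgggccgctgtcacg
The *Egln1* stretch held 2 matches (126 and 68 bases before the start), that of *Egln3* 1 (229 bases before) and that of *Egln2*, the gene that fell, 4 (151, 137, 48 and 34 bases before), with 1 more in the stretch before its other listed start. At least 1 match was found in 38.6% and at least 2 in 16.7% of 32851 such stretches. Of the 9 genes with an entry 6 held at least 1 match, the others being *Hif1a* (3, of which 2 are the overlapping strands of CACGTG), *Hif3a* (2) and *Arnt* (1). *Epas1* had no entry. The matches are a description, and binding was not measured.

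*Egln1* was read by 1 probe, with processed signals of 527 and 554 untreated and 718 and 665 after OGD. Its signal was higher after OGD even before scaling, while the 75th percentile of the arrays was lower. The log2 fold change was 1.73 (SE 0.08, limma adjusted p = 0.000879), 3.31-fold higher, and 0.44 under the spike-in scaling (adjusted p = 0.0144).

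The brighter *Egln3* probe (A_52_P387009) had 2923 and 3080 untreated and 5583 and 4420 after OGD. The second (A_55_P1960916) had 899 and 891 untreated and 2097 and 1243 after OGD, with the OGD arrays further apart from each other. At both, each OGD array was above each untreated array before scaling. The log2 fold changes were 2.10 (SE 0.09, limma adjusted p = 0.000816) and 2.22 (SE 0.22, adjusted p = 0.00267), which is 4.29-fold and 4.67-fold higher, and 0.81 and 0.94 under the spike-in scaling. *Egln3* had the highest log2 fold change of the 10 genes at their brightest probes, and 2.53% of all genes tested had a higher one.

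*Egln2* went the other way at both probes. A_55_P1960924 had processed signals of 23597 and 22980 untreated and 4562 and 4141 after OGD, and A_55_P2005330 had 3777 and 4291 untreated and 660 and 643 after OGD. No array of one group reached the other. The log2 fold changes were −1.05 (SE 0.08, limma adjusted p = 0.00167) and −1.25 (SE 0.11, adjusted p = 0.00218), 2.07-fold and 2.39-fold lower.

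Within arrays *Egln3* changed by 0.37 more than *Egln1* (95% CI 0.05 to 0.69, limma adjusted p = 0.0346) and *Egln2* by −2.78 (95% CI −3.03 to −2.52, adjusted p = 0.000127). *Vhl* and *Hif1an* were at −1.93 (95% CI −2.32 to −1.55, adjusted p = 0.000404) and −3.94 (95% CI −4.18 to −3.70, adjusted p = 0.000127) against *Egln1*. These comparisons, like those above against *Hif1a* and *Arnt2*, cannot be changed by a common scale, but 94.1% of all probes differed from the *Egln1* probe past the limit. Quantile normalization, which is not a common scale, gave log2 fold changes of 1.95 for *Egln3* and 1.76 for *Egln1*.

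*Hif1an* (FIH) had the largest decrease of the 10 genes. Its processed signal was 362 and 376 untreated and 32.7 and 29.1 after OGD, well above background on all 4 arrays. The log2 fold change was −2.21 (SE 0.08, limma adjusted p = 0.000719), 4.63-fold lower, and 3.15% of all genes tested had a lower one. With the normexp background correction it was −0.97 (adjusted p = 4.68e-05), the smallest in size among the alternatives.

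*Vhl*, the substrate receptor of the ubiquitin ligase, had 12642 and 12406 untreated and 4839 and 3637 after OGD, at a probe whose end holds AATAAA. The normalized groups did not overlap, but the log2 fold change of −0.20 (SE 0.11, 95% CI −0.51 to 0.10, limma adjusted p = 0.174) missed the limit. It was past the limit at −0.48 after quantile normalization, at −0.31 with the normexp correction, at −0.36 with the percentile taken over bright probes only, and at −1.49 under the spike-in scaling. Leaving out OGD replicate 1 also gave −0.31 (adjusted p = 0.0469).

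Of the other subunits of the VHL ligase, 3 of 4 were higher and 0 lower, and their median change was 0.50 (log2), where that of all genes tested was 0.16, with 37.1% higher and 27.9% lower. With either untreated array left out, fewer of the 4 were past the limit as higher, and so were fewer of all genes. Each such fit keeps 1 untreated array, so no count is given here. The 3 higher ones were *Eloc* (0.64) and *Elob* (0.57), the elongins, and *Rbx1* (0.42), the RING subunit. The scaffold *Cul2* was at −0.03 (limma adjusted p = 0.823). All 4 were lower under the spike-in scaling, as were 83.4% of all genes. After quantile normalization 0 were past the limit, beside 28.3% of all genes higher and 31.2% lower. The limma calls of *Eloc*, *Elob* and *Rbx1* thus depended on the scale.

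Among 8 other regulators of the α subunits 6 were higher and 1 lower (median 0.62), beside 37.1% of all genes higher and 27.9% lower. Under the spike-in scaling 0 were higher and 8 lower, beside 3.85% and 83.4% of all genes, and all 6 that were higher on the percentile scale turned. The 6 higher genes were 4 with the methods' t-test and 4 after quantile normalization, beside 25.8% and 28.3% of all genes. The gene that was lower, also on the spike-in scale, was *Usp20*, a deubiquitinase that acts on HIF-1α, with processed signals of 11983 and 12404 untreated and 1659 and 1531 after OGD. Its log2 fold change was −1.56 (SE 0.08, limma adjusted p = 0.000954).

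Of 8 coactivators and their competitors 4 were higher and 3 lower (median 0.10), beside 37.1% and 27.9% of all genes, and on the spike-in scale 1 was higher and 6 lower, beside 3.85% and 83.4%. Of the 4 higher ones 3 turned on that scale. *Cited2*, which competes with HIF-1α for binding to CBP and p300 and is itself a HIF target gene, had processed signals of 4524 and 4524 untreated and 7761 and 8018 after OGD. It was the 1 gene of this list that was higher on the spike-in scale as well, at 0.89 beside 2.18 (SE 0.11, limma adjusted p = 0.000988) on the percentile scale. The acetyltransferases that HIF recruits split, with *Ep300* (p300) at −0.56 (adjusted p = 0.0154) and *Crebbp* (CBP) at 0.89 (adjusted p = 0.00655), the latter turning to −0.40 on the spike-in scale. *Cited1* was at 1.26, which turned to −0.03 on the spike-in scale, while *Cited4* (−1.74) and the coactivator *Ncoa2* (−1.24) were lower on both.

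Of 10 tested bHLH-PAS factors, the transcription factor family of the HIF subunits, 3 were higher and 4 lower (median 0.01), shares near those of all genes (37.1% and 27.9%). On the spike-in scale 1 was higher and 9 lower, beside 3.85% and 83.4% of all genes, and 2 of the 3 higher ones turned. With the methods' t-test there were 1 higher and 3 lower, beside 25.8% and 19.8% of all genes. *Arntl*, the clock factor BMAL1 and a relative of ARNT, had processed signals of 2630 and 2563 untreated and 7389 and 5686 after OGD. Its log2 fold change of 2.69 (SE 0.10, limma adjusted p = 0.000757) was 1.40 on the spike-in scale. *Arntl2* (−1.76) and *Ahrr*, the repressor of the dioxin receptor (−1.02), were lower on both scales.

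Genes known as HIF targets moved mostly one way. Of 46 tested, 43 were higher and 1 lower, with a median log2 fold change of 1.68, beside 37.1% of all genes higher and 27.9% lower. On the spike-in scale 24 were higher and 14 lower, beside 3.85% and 83.4% of all genes, and 14 of the 43 turned. The list holds genes chosen with results of these data known, so its direction is not independent evidence. The highest were *Slc16a3* (6.30), the lactate exporter MCT4, *Ankrd37* (5.92), *Adm* (4.54), which encodes adrenomedullin, *Ero1l* (4.47), an oxidase of the endoplasmic reticulum, *Vegfa* (3.56), the angiogenic growth factor, and *Hk2* (3.53), a hexokinase. All 6 stayed higher on the spike-in scale, at 5.02 for *Slc16a3* and 2.24 for *Hk2*.

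At the other end, *Pfkfb4*, a regulator of glycolysis, was at −1.44 (limma adjusted p = 0.00703) and lower on both scales. *Ldha* (0.44), *Plod2* (0.51) and *Tfrc* (0.51) had the smallest increases past the limit and turned to −0.85, −0.78 and −0.77 on the spike-in scale, and *Ldha* also to −0.41 after quantile normalization (adjusted p = 0.0135). *Slc2a1*, the glucose transporter GLUT1, was at 1.59 (adjusted p = 0.00153) and at 0.30 on the spike-in scale (adjusted p = 0.0835). *Epo* was not tested, since its processed signals of 8.60 and 1.75 untreated and 3.72 and 4.01 after OGD were well above background on 1 untreated array only.

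**Figure D4:**
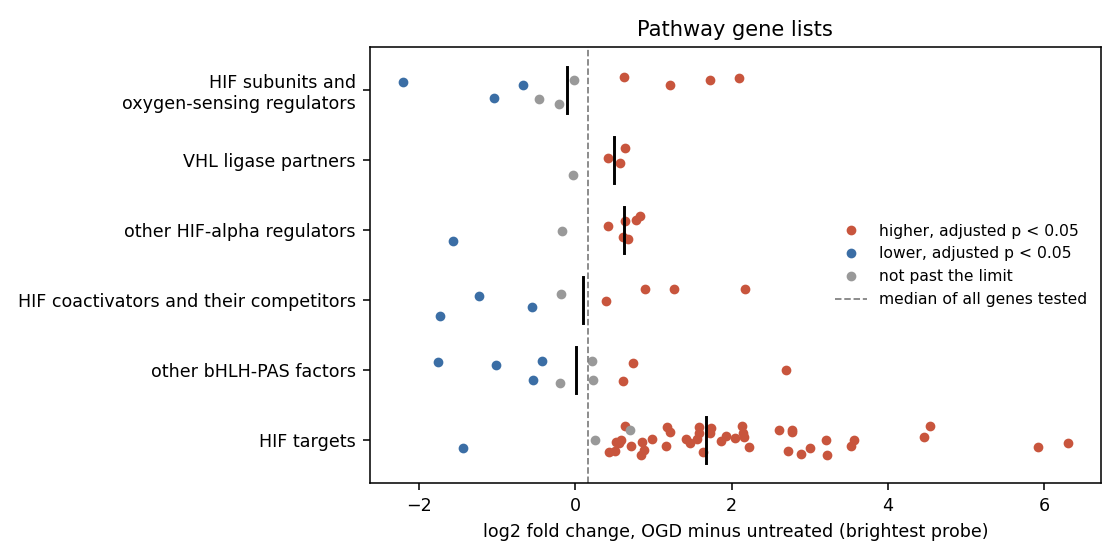
Log2 fold change (OGD minus untreated, 75th-percentile scaling) of each tested gene at its brightest probe, by list. Points are genes, colored by their limma call, black lines are list medians and the dashed line is the median of all genes tested (0.16). The HIF targets lie furthest to the right, with a median of 1.68, while the 10 HIF and oxygen-sensing genes spread to both sides.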

How the data were processed

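Total RNA of AECs, untreated (n = 2) or after 15 h of OGD (n = 2), was read on 1-color arrays. The deposited intensity values are the processed signal of Agilent Feature Extraction (11.5.1.1 per the submitters' processing notes), which the authors obtained after background subtraction within each array and did not normalize between arrays. Log2 was taken, control and outlier spots were left out, spots of a probe were averaged, and each array's 75th percentile was subtracted, as in the study's methods. Probes well above background (in at least a fraction of 0.5 of their spots) on both arrays of a group were compared with lmFit and eBayes (limma 3.58.1, R 4.3.3), with p-values adjusted by Benjamini–Hochberg and a limit of 0.05. A difference between probes of a gene, and of a probe from a reference probe within arrays, was fitted likewise over all such pairs or probes. The latter comparison was chosen after values had been seen, as was the restriction of the probe pairs read to those well above background on all 4 arrays. Steps were tested on simulated data. No depth in reads exists for arrays, and the number of arrays limits the precision.

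For each gene the probe that was brightest on average stood for it. All 10 genes are named with every probe. Of the regulator lists, genes past the limit that changed by at least 1 on the log2 scale are named, with *Eloc*, *Elob*, *Cul2*, *Rbx1*, *Ep300*, *Crebbp* and *Cited2*. Of the targets, the 6 highest and the 4 lowest called genes are named, with *Vegfa*, *Slc2a1* and *Epo*, and of the markers *Gfap*, *Olig2* and those at background. *Aif1* was at 1.03 (−0.26 on the spike-in scale), *Cdh5* at 0.27 (adjusted p = 0.151, −1.02 on the spike-in scale) and *Rbfox3*, not well above background after OGD, was at least 1.52-fold lower (adjusted p = 0.0132). The genes and lists were chosen with earlier results of these data known. Other settings tried were a replicate block, the methods' t-test, a trend and robust prior in limma, normexp background correction (offset 50), median, quantile, bright-probe percentile and spike-in scaling, other filters, outlier spots kept, the series table, each array left out, other limits and the mean over a gene's probes. Probe positions (mm9) are those in the files, and promoters are RefSeq sequences. Figures and sequence tables were made with Python 3.11.15, pandas 2.3.3 and matplotlib 3.10.9. PCR and imaging were not analysed here.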

Additional observations from a re-analysis of the deposited data

How the results depend on the processing

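Median scaling, kept outlier spots and the series table changed no call of the 10 genes. The spike-in scaling gave 2 higher and 7 lower genes and reversed *Hif1a* (−0.0766) and *Epas1* (−0.67, A_55_P2077448 −0.64). Relative to the 75th percentile, the median log2 fold change of all probes moved by −0.15 with the bright-probe percentile, −0.17 with quantile normalization and −1.29 with spike-in scaling. Quantile normalization reversed *Epas1* (−0.20) and the *Egln2* probe difference (0.15). Normexp reversed *Hif3a* (1.12 and 1.01) and left 2 of 4 probe pairs past the limit (a count that includes both dim pairs), as did the filter on all 4 arrays. The mean over probes reversed *Arnt* (1.32). With the methods' t-test *Epas1* lost its call (adjusted p = 0.0595). A 2-fold limit left 8 of 24 regulators and 16 of 37 markers, and a 10-fold limit 0 member probes, 0 higher and 0 lower members, 0 regulators, 0 markers and 6 targets. With each array left out in turn, member probes called ranged from 10 to 15, higher members from 3 to 4, lower members from 3 to 4, probe pairs from 1 to 4, regulators from 11 to 24, targets from 36 to 44 and markers from 21 to 38. The regulators were 15 without untreated replicate 1 and 11 without untreated replicate 2 (higher ones 10 and 6 in place of 16, and 10 with the methods' t-test or quantile normalization), the markers 24 and 21, and the probe pairs 1 and 1. With each array left out in turn, the values that reversed ranged from −0.11 to 0.0753 for *Arnt2* (above 0 without untreated replicate 2 or OGD replicate 1), from −1.34 to 0.39 for *Hif3a* and from −0.0849 to 0.33 for the *Egln3* pair (both reversed without OGD replicate 1), and from −0.26 to 0.31 for the *Epas1* A_55_P2077448 pair (reversed without untreated replicate 1 or OGD replicate 2). The replicate numbers only number the samples (correlation of deviations −0.06), and with them as a replicate block 13 member probes, 4 higher and 3 lower members, 23 regulators, 44 targets, 36 markers and 3 probe pairs were past the limit. The causes of these changes were not tested. Signals near background limit what can be read for *Hif3a*. For the *Hif1a* probe A_55_P2149011, not well above background after OGD, the signs of the fitted fold change (−0.83 with spike-in scaling) and of the probe difference (0.0915 with normexp) also changed, and neither is read as a result.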
